A study of Mus musculus with 4 samples.

Results

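The apolipoproteins and the proteins that assemble, remodel, take up and break down lipoproteins were examined in non-tumorous livers of G9aΔHep and WT mice. The set was a list of 40 mouse genes chosen by name and role, with earlier results of these data known. Of these, 37 had at least 1 array probe set assigned to that gene alone, and 33 were detected, which means that a probe set was called Present on at least 2 of the 4 arrays. They were described among 10350 detected genes of 18193 named on the array. G9aΔHep mice carried the genotype Alb-Cre; G9aflox/flox, and WT mice carried Alb-Cre; G9a+/+, so the Cre transgene was shared by both groups. Cre was driven by the albumin promoter, which acts in hepatocytes, so the other cells of the liver keep G9a, a methyltransferase for lysine 9 of histone H3 encoded by *Ehmt2*. The mice were male, on a C57BL/6 background and fed regular chow. All 4 received 25 mg/kg diethylnitrosamine at 15 days of age and 22 injections of carbon tetrachloride at 0.5 ml/kg, and livers were taken at 30 weeks. Every mouse of both groups was therefore carcinogen-treated, and untreated livers were not analysed here. There were 2 G9aΔHep mice and 2 WT mice, each on 1 Affymetrix mouse genome array.

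Lipoproteins carry triglyceride and cholesterol through the blood in particles coated with apolipoproteins, and the hepatocyte is the main source of most of these proteins. Very low density lipoprotein is built around apolipoprotein B in the endoplasmic reticulum, while high density lipoprotein (HDL) is built around apolipoprotein A-I and is remodelled in plasma by lipid transfer proteins and esterifying enzymes. Lipases then unload the triglyceride, and receptors on liver and other cells take up the remnants or the cholesterol.

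No lipoprotein gene passed the test between G9aΔHep and WT livers. With limma at a Benjamini-Hochberg adjusted p under 0.05, 0 of 33 detected members were called, where 0.386% of all genes tested were called. At an unadjusted p under 0.05 there were 4 members, or 12.1% of the 33, against 10% of all genes tested, which is close to the background. Of these, *Pltp* and *Apom* had higher signals in G9aΔHep livers, where 5.92% of all genes were past this limit on the higher side. *Cd36* and *Scarb1* had lower signals, where 4.10% of all genes were past it on the lower side. Signals of the 2 genotypes did not overlap for 11 members, or 33.3%, against 41.6% of all genes tested. Of the 11, 6 were higher in G9aΔHep livers and 5 lower, against 22.3% and 19.3% of all genes. With 2 arrays against 2, a two-sided exact permutation test of a single gene cannot go below p = 0.33. The labels name the mice as separate samples and say no more about them, so p-values measure the spread between these samples.

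**Figure D1:**
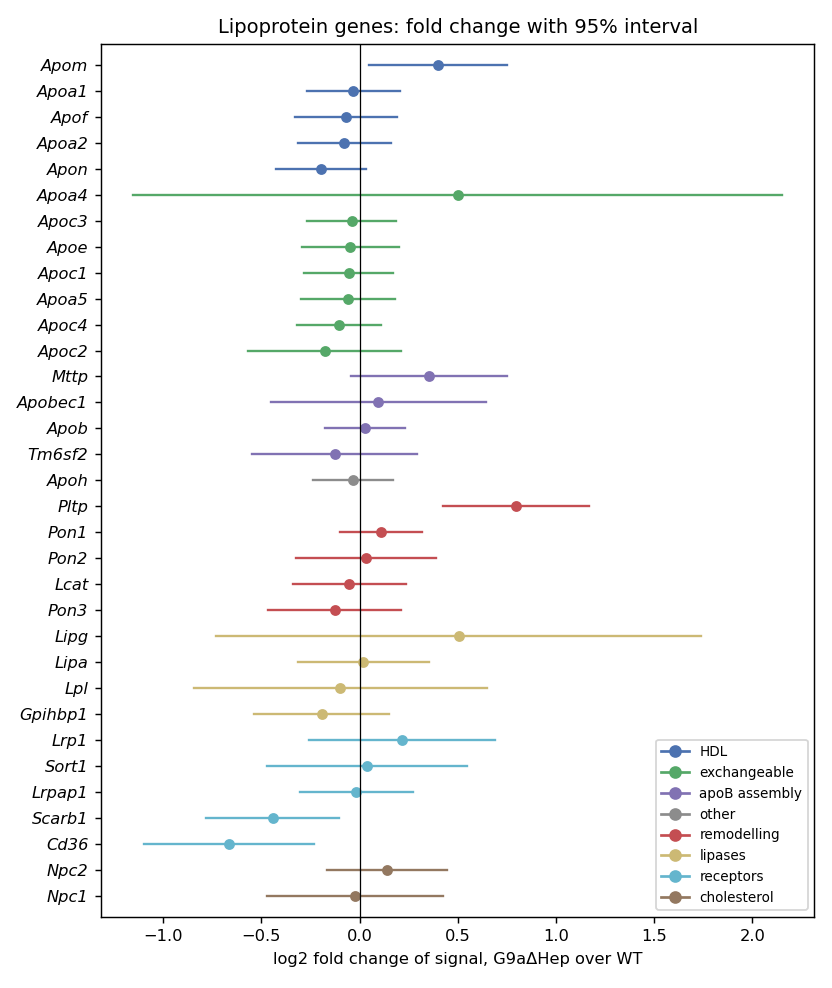
Log2 fold change of signal (G9aΔHep over WT, x axis) for each of the 33 detected lipoprotein genes (y axis), coloured by role, with bars showing the 95% interval from limma. The intervals of *Pltp*, *Apom*, *Scarb1* and *Cd36* do not reach 0, and those of *Apoa4* and *Lipg* are the widest.

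Most differences across the list were small. The median log2 fold change of the 33 members was -0.03, beside 0.02 over all genes tested. The median size of the change was 0.099 for members and 0.186 for all genes. Most members were among the brighter tested genes, however. The 104 tested genes above the 99th percentile of mean signal, members or not, had a median size of 0.088. Positive values were found for 13 members, or 39.4%, against 53.4% of all genes. That split depends on how the arrays are scaled. It was 63.6% after quantile normalisation, against 49.1% of all genes. After centring each array on its median it was 27.3%, against 44.1% of all genes. The sign turned for 8 members close to 0 in the first case and for 4 in the second, and no direction is given for these. For 23 of the 33 members the whole 95% interval lay within 1.5-fold of no difference, and for the other 10 it reached past 1.5-fold.

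Scaling gave each of the 4 arrays a trimmed mean of 500, so likeness in overall signal was set in advance. The median signal was 92.9 and 90.3 in G9aΔHep livers, against 84.6 and 83.6 in WT livers. Between 42.8% and 43.9% of probe sets were called Present in G9aΔHep livers, and between 41.3% and 41.9% in WT livers. Signals correlated at 0.9703 and 0.9708 between arrays of 1 genotype, and at 0.9588 to 0.9668 between genotypes. The detected *Ehmt2* probe set read 174.1 and 163.7 in G9aΔHep livers, both called Absent, and 640.4 and 492.5 in WT livers, both called Present. Whether that probe set lies within the deleted exons is not known here. Of 10 hepatocyte markers, the 9 with a probe set were Present on every array, with sums of 376240 and 336580 in G9aΔHep livers, against 381460 and 377720 in WT livers. All 14 tested macrophage markers had a log2 fold change above 0. Summed over all 15 listed, of which *Trem2* was Absent on every array, they read 73662 and 47027 in G9aΔHep livers and 34378 and 49981 in WT livers, so the sums overlapped.

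Among the enzymes and transfer proteins that remodel particles in plasma, *Pltp* stood farthest from 0 of all 33 members. It encodes phospholipid transfer protein, which moves phospholipid from triglyceride-rich particles to HDL. Its signal was 2789 and 3389 in G9aΔHep livers, against 1676 and 1873 in WT livers. Both G9aΔHep values lay above both WT values. The means were 3089 ± 424 in G9aΔHep livers and 1774 ± 139 in WT livers (SD, n = 2 each), a 1.74-fold difference. The log2 fold change was 0.80 (SE 0.15), with a 95% interval of 0.42 to 1.17, and the limma adjusted p was 0.157. *Pltp* ranked 129 of 10350 by p. A second *Pltp* probe set was called Absent on every array, at 328.0 and 328.7 in G9aΔHep livers, against 154.0 and 175.9 in WT livers. Marker sums of cholangiocytes and liver tumour were also higher in both G9aΔHep mice than in both WT mice. In both sums the G9aΔHep mouse with less *Pltp* was the higher. The same mouse was the higher of the 2 for all listed cell types but adipocytes and enterocytes. The 6 cholangiocyte markers with a probe set summed to 1310 and 919.7 in G9aΔHep livers, against 484.3 and 546.9 in WT livers. Of these, *Krt7*, *Krt19*, *Epcam* and *Cftr* were each Present on only 1 array, and *Pkhd1* and *Sox9* on all 4. *Pkhd1* read 477.8 and 286.2 in G9aΔHep livers, against 74.8 and 120.0 in WT livers. *Sox9* overlapped, at 260.1 and 149.5 in G9aΔHep livers, against 173 and 83.9 in WT livers. The 5 liver tumour markers summed to 5132 and 2318 in G9aΔHep livers, against 2067 and 1477 in WT livers. Among them *Afp* read 3058 and 1159 in G9aΔHep livers, against 252.4 and 115.6 in WT livers. *Gpc3*, *Igf2*, *Cd44* and *Golm1* each overlapped between genotypes. All 8 tested stellate cell and fibroblast markers had a log2 fold change above 0 (median 0.60). Sums over the 10 listed overlapped, at 20937 and 12795 in G9aΔHep livers, against 10825 and 15525 in WT livers. The brightest, *Dcn*, overlapped at 12203 and 8238 in G9aΔHep livers, against 6761 and 11124 in WT livers. *Pdgfrb* and *Reln* also overlapped. *Col1a1*, *Col1a2*, *Col3a1*, *Acta2* and *Lrat* were higher in both G9aΔHep mice than in both WT mice, as were 22.3% of all genes tested. Macrophage sums, given above, overlapped. The part of these cells in the *Pltp* result was not tested, and in whole liver more cells of a type and more RNA per cell cannot be told apart.

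The other remodelling genes lay near 0. *Pon1*, an esterase bound to HDL, read 52540 and 50221 in G9aΔHep livers, against 48348 and 46922 in WT livers. These did not overlap, but the log2 fold change was only 0.11 (SE 0.09) with an adjusted p of 0.717. Its relative *Pon3* read 1735 and 1876 in G9aΔHep livers, against 1855 and 2089 in WT livers, at a log2 fold change of -0.13 (SE 0.14) and an adjusted p of 0.799, with overlapping values. *Pon2*, the intracellular member of the family, was at 0.03. *Lcat* encodes the plasma enzyme that esterifies HDL cholesterol, and its values overlapped, at 11818 and 10816 in G9aΔHep livers, against 12535 and 10959 in WT livers.

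Of the receptor and sorting genes, *Cd36* and *Scarb1* had lower signals in G9aΔHep livers. *Cd36* encodes a scavenger receptor for oxidised lipoproteins that also takes up long-chain fatty acids. Its brightest probe set read 1810 and 1751 in G9aΔHep livers, against 2422 and 3290 in WT livers. No G9aΔHep value reached the lower WT value, and the WT mice differed from each other more than the G9aΔHep mice did. The means were 1780.4 ± 41.9 in G9aΔHep livers and 2856 ± 614 in WT livers (SD, n = 2 each). The log2 fold change was -0.67 (SE 0.18), with a 95% interval of -1.10 to -0.23 and a limma adjusted p of 0.30. The other detected *Cd36* probe sets gave the same order. One read 1554 and 1525 in G9aΔHep livers, against 2250 and 2749 in WT livers, and the dimmest read 216.6 and 171.8 in G9aΔHep livers, against 305.8 and 281.4 in WT livers. The size rests in part on WT replicate 2: without it the log2 fold change was -0.44, and without WT replicate 1 it was -0.89. Macrophages and endothelium also carry this receptor. The summed signal of all 10 endothelial markers was 11577 and 10667 in G9aΔHep livers, against 12786 and 10705 in WT livers, with *Tie1* Absent on every array. Of the 8 tested, 4 had a log2 fold change above 0. *Lyve1*, a marker of sinusoidal endothelium, was ordered as *Cd36* was, at 759.0 and 550.4 in G9aΔHep livers, against 1025 and 1639 in WT livers. Its log2 fold change of -1.004 (unadjusted limma p 0.0111) was the lowest of the 8 tested, whose median was 0.007 and highest 0.40. The sinusoidal markers *Stab2* and *Clec4g* were at 0.05 and -0.05. The part of these cells in the *Cd36* difference was not tested.

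*Scarb1* encodes SR-BI, the HDL receptor through which hepatocytes take up cholesteryl ester. Its brightest probe set read 2652 and 2355 in G9aΔHep livers, against 3642 and 3166 in WT livers. The genotypes did not overlap on this probe set or on the other detected *Scarb1* probe sets. The means were 2503 ± 210 in G9aΔHep livers and 3404 ± 336 in WT livers (SD, n = 2 each), with a log2 fold change of -0.44 (SE 0.14), a 95% interval of -0.78 to -0.10 and a limma adjusted p of 0.384. The other probe sets gave log2 fold changes of -0.45 and -0.33. Probe sets of 1 gene share the same RNA and do not count as replicates. By their suffixes, the brightest probe sets of *Scarb1*, *Pltp* and *Apoa4* hold probes that may also match other transcripts.

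**Figure D2:**
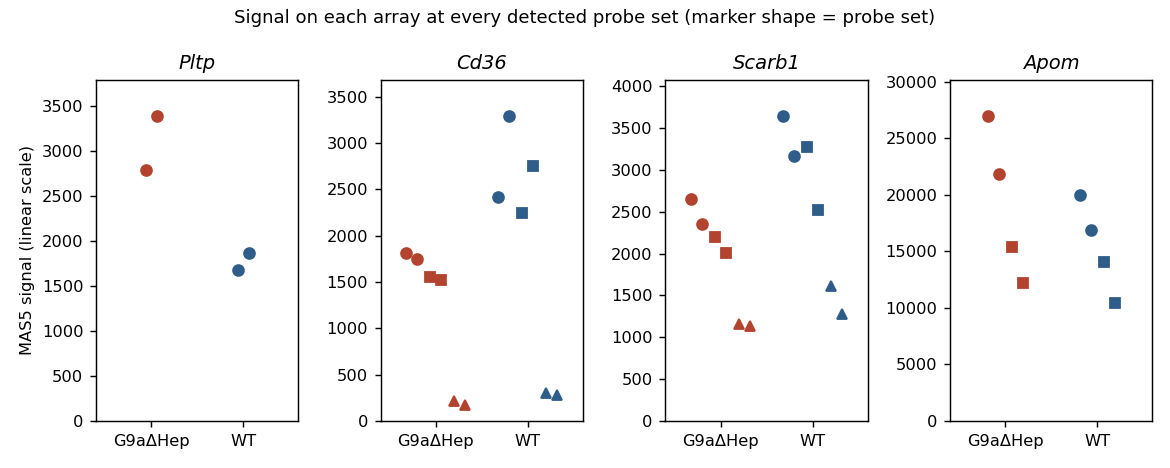
MAS5 signal (linear y axis starting at 0) on each array for *Pltp*, *Cd36*, *Scarb1* and *Apom* in G9aΔHep livers (red) and WT livers (blue), with 1 point per mouse and 1 marker shape per detected probe set. The genotypes are separate at every *Cd36* and *Scarb1* probe set shown, while the dimmer *Apom* probe set overlaps.

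Of the remaining receptor and sorting genes, *Lrp1*, the remnant receptor, read 2879 and 2544 in G9aΔHep livers, against 2772 and 1960 in WT livers. These overlapped, and the log2 fold change was 0.22 (SE 0.19, adjusted p 0.752), which turned to -0.03 without WT replicate 2. A dimmer *Lrp1* probe set read 478.5 and 654.8 in G9aΔHep livers, against 398.6 and 348.6 in WT livers, without overlap. The chaperone of this receptor, *Lrpap1*, was at -0.02. *Sort1*, which encodes the Golgi sorting receptor sortilin, read 795.6 and 597.0 in G9aΔHep livers, against 727.5 and 619.5 in WT livers, and overlapped.

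*Pltp* and *Cd36* had the largest difference in each direction, so the 250 bases before their annotated starts are given here, from RefSeq on GRCm38.p6. The *Pltp* stretch is chr2:164857709-164857958 on the minus strand, and the *Cd36* stretch is chr5:17835897-17836146 on the minus strand. Both are written 5′ to 3′ along the gene, and capitals mark motif matches on either strand. The motifs were AGGTCA and its variant AGTTCA, which are core hexamers of nuclear receptor sites. The others were GGGCGG, known as the GC box, and TATAAA, the core promoter element that TBP binds.
Pltp: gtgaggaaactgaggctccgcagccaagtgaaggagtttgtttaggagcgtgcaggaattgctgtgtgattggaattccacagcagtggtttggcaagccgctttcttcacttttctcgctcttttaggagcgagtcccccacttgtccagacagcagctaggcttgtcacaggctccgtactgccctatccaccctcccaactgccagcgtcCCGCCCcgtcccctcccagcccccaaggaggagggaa
Cd36: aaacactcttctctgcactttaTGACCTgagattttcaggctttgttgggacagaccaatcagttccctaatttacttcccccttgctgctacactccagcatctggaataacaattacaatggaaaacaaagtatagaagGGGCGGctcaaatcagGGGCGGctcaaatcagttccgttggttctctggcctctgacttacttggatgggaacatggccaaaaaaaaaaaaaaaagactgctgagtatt
The *Pltp* stretch held 1 GC box, 37 bases before the start. The *Cd36* stretch held GC boxes 109 and 93 bases before the start, within a repeated sequence, and an AGGTCA match 228 bases before it. These letters are common: among 32851 promoter stretches of the same length, 32.7% held GGGCGG, 14% AGGTCA, 11.8% AGTTCA and 12.4% TATAAA. Entries were found for 23 of the lipoprotein genes, with 27 promoters, of which 8 held GGGCGG, 6 AGGTCA, 4 AGTTCA and 7 TATAAA. A match describes the letters of the stretch and is not evidence of binding.

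Of the HDL apolipoproteins, *Apoa1* and *Apoa2*, the major structural proteins of HDL, differed little between genotypes. *Apoa1* read 91145 and 81148 in G9aΔHep livers, against 90966 and 84837 in WT livers, and the 95% interval of its log2 fold change was -0.27 to 0.21. *Apoa2* read 72465 and 65046 in G9aΔHep livers, against 75099 and 69952 in WT livers. Both pairs overlapped. *Apom*, the HDL carrier of sphingosine-1-phosphate, read 26926 and 21858 in G9aΔHep livers, against 19994 and 16919 in WT livers, without overlap. Its means were 24392 ± 3583 in G9aΔHep livers and 18457 ± 2174 in WT livers (SD, n = 2 each), with a log2 fold change of 0.40 (SE 0.14), a 95% interval of 0.05 to 0.75 and a limma adjusted p of 0.448. A second *Apom* probe set overlapped, at 15388 and 12156 in G9aΔHep livers, against 14073 and 10442 in WT livers, for a log2 fold change of 0.17. *Apom* lies on chromosome 17, as *Ehmt2* does, with 32 annotated genes between them. Of these, 10 were tested, and 6 had a log2 fold change above 0, against 53.4% of all genes tested. Only 1 of the 10, *Gpank1*, was past an unadjusted limma p of 0.05, against 10% of all genes tested. The chromosome segment that came with the floxed allele and the genotype cannot be told apart.

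*Apon*, an apolipoprotein expressed in mouse liver, lay on the lower side. It read 20202 and 18921 in G9aΔHep livers, against 22525 and 22263 in WT livers, without overlap. The log2 fold change was -0.20 (SE 0.09), with an adjusted p of 0.556. Its neighbour *Apof*, whose protein inhibits cholesteryl ester transfer in humans, read 25805 and 28445 in G9aΔHep livers, against 26995 and 29999 in WT livers, and overlapped. *Apod* was Present on fewer than 2 arrays and was treated as not detected. Its brighter probe set read 14.6 and 50.6 in G9aΔHep livers, against 2.92 and 75.1 in WT livers.

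Of the genes that assemble apolipoprotein B particles, *Mttp* encodes the protein that loads lipid onto apolipoprotein B. It read 9826 and 9945 in G9aΔHep livers, against 9015 and 6621 in WT livers, with a log2 fold change of 0.36 (SE 0.16) and an adjusted p of 0.540. The genotypes did not overlap, but 1 WT mouse was well below the other 3 mice, and without it (WT replicate 2) the log2 fold change was 0.13. *Apob* itself read 53265 and 53468 in G9aΔHep livers, against 51472 and 53212 in WT livers, a log2 fold change of 0.03. A second *Apob* probe set disagreed, at 2398 and 2060 in G9aΔHep livers, against 3657 and 2610 in WT livers, without overlap. Its log2 fold change was -0.48 in the fit over probe sets (unadjusted p 0.0446, adjusted p 0.527). Which of these probe sets better follows the transcript was not tested. *Apobec1*, the cytidine deaminase that edits *Apob* mRNA, read 761.8 and 526.7 in G9aΔHep livers, against 606.7 and 578.8 in WT livers. *Tm6sf2*, needed for full lipid loading, read 1051 and 1345 in G9aΔHep livers, against 1260 and 1335 in WT livers. Both overlapped.

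The exchangeable apolipoproteins differed little between genotypes apart from *Apoa4*, which differed more between mice than between genotypes. Of the 7 tested, 1 had a log2 fold change above 0, and the median was -0.05, so close to 0 that quantile normalisation turned the sign of *Apoc1*, *Apoc3* and *Apoe*. *Apoe*, the ligand for remnant receptors, read 71791 and 64014 in G9aΔHep livers, against 73210 and 67061 in WT livers. *Apoc3*, an inhibitor of lipoprotein lipase, read 62476 and 57579 in G9aΔHep livers, against 63785 and 59594 in WT livers. Both overlapped, as did *Apoc1*, which restrains lipoprotein uptake, and *Apoa5*, which favours lipase action. *Apoc4* read 35408 and 34780 in G9aΔHep livers, against 36959 and 38479 in WT livers, without overlap, at a log2 fold change of -0.10 (SE 0.09, limma adjusted p 0.736). *Apoc2*, the activator of lipoprotein lipase, read 19176 and 19089 in G9aΔHep livers, against 18503 and 25309 in WT livers. One WT mouse was above the other 3, the log2 fold change was -0.18 (SE 0.16, adjusted p 0.752), and it turned to 0.05 without that mouse.

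*Apoa4*, which in mice is made by intestine and by liver under lipid load, read 10698 and 23289 in G9aΔHep livers, against 5523 and 22556 in WT livers. In each genotype 1 mouse was low and 1 was high, and the ranges overlapped widely. The higher mouse was 2.18 times the lower in G9aΔHep livers and 4.08 times in WT livers. Spreads at least this wide were found for 3.565% of all genes tested in G9aΔHep livers and 0.7923% in WT livers. A second *Apoa4* probe set gave the same order, at 7097 and 20721 in G9aΔHep livers, against 3624 and 20211 in WT livers. The 95% interval of its log2 fold change at the brighter probe set was -1.15 to 2.15. *Fabp2*, a fatty acid binding protein of enterocytes, was looked at after its values were seen. It read 4664 and 9808 in G9aΔHep livers, against 6053 and 9350 in WT livers, and was higher in the same mouse of each genotype as *Apoa4*. Of the other enterocyte markers, *Lct* was Absent on every array. *Alpi* read 138.5 and 148.8 in G9aΔHep livers, against 82.8 and 118.3 in WT livers. *Vil1* ran opposite to *Apoa4* within each genotype, at 200.2 and 127.2 in G9aΔHep livers, against 171.2 and 62.0 in WT livers. The part of intestinal cells in the *Apoa4* spread was not tested.

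*Apoa4* lies beside *Apoa1*, *Apoc3* and *Apoa5* on chromosome 9, and the other genes of this cluster had log2 fold changes of at most 0.06 in size. The 250 bases before the *Apoa1* and *Apoa4* starts are given because these neighbours differed in how much they varied between mice. They are chr9:46228380-46228629 and chr9:46240594-46240843, both on the plus strand of GRCm38.p6 and from RefSeq, with the same matches in capitals as before.
Apoa1: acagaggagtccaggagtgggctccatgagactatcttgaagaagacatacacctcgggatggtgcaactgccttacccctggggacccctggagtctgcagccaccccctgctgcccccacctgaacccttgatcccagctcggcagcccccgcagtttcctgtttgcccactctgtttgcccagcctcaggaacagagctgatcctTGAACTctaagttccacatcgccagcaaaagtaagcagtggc
Apoa4: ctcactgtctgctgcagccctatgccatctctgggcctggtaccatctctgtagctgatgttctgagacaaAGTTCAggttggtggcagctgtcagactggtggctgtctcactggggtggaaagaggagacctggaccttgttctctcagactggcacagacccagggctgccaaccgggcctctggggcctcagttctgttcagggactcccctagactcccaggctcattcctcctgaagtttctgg
Each held 1 match to AGTTCA, 42 bases before the *Apoa1* start on the opposite strand and 179 bases before the *Apoa4* start on the strand given. The remaining clusters moved little: *Apoc2*, *Apoc4*, *Apoc1* and *Apoe* on chromosome 7 had log2 fold changes of -0.18 to -0.05, *Pon1*, *Pon3* and *Pon2* on chromosome 6 of -0.13 to 0.11, and *Apon* and *Apof* on chromosome 10 of -0.20 to -0.07.

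**Figure D3:**
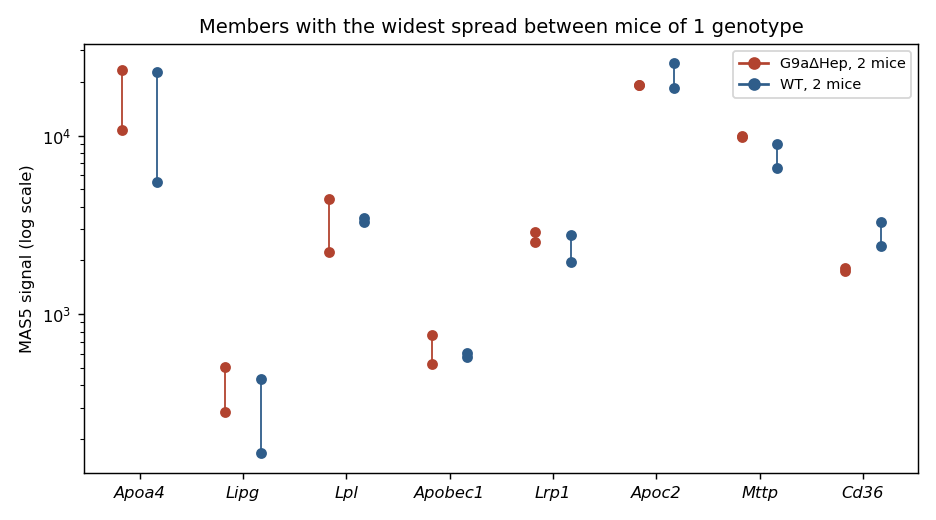
MAS5 signal (log y axis) of the 8 lipoprotein genes with the widest spread between mice of 1 genotype, with 1 point per mouse, a line joining mice of the same genotype, and G9aΔHep livers (red) left of WT livers (blue). *Apoa4* and *Lipg* spread widely in both genotypes, and *Lpl*, at the probe set shown, only in the 2 G9aΔHep mice.

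Of the lipases, *Lpl* encodes lipoprotein lipase, which hydrolyses triglyceride on capillary walls. It read 4402 and 2234 in G9aΔHep livers, against 3268 and 3451 in WT livers, so the WT mice lay between the G9aΔHep mice. Its spread was 1.97-fold in G9aΔHep livers and 1.06-fold in WT livers. The G9aΔHep mouse with more *Lpl* also had the higher macrophage marker sum. It had the higher sum for every other listed cell type as well, apart from adipocytes and enterocytes. In WT livers the macrophage sums were 34378 and 49981, and *Lpl* at its brighter probe set read 3268 and 3451. A dimmer *Lpl* probe set read 797.5 and 387.2 in G9aΔHep livers, against 734.0 and 571.6 in WT livers. The adipocyte markers *Adipoq*, *Lep* and *Retn* were Absent on every array. *Cidec*, also on that list, was Present on all 4, at 266.5 and 345.6 in G9aΔHep livers, against 134.3 and 453.8 in WT livers. The part of these cells in the *Lpl* spread was not tested. *Gpihbp1*, the endothelial protein that anchors this lipase, read 1827 and 1846 in G9aΔHep livers, against 1940 and 2271 in WT livers. The genotypes did not overlap, and the log2 fold change was -0.19 (SE 0.14, adjusted p 0.700).

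*Lipg*, endothelial lipase, acts mainly on HDL phospholipid. It read 285.2 and 509.6 in G9aΔHep livers, against 166.6 and 433.5 in WT livers, with a log2 fold change of 0.50 (SE 0.51, limma adjusted p 0.776) that turned to -0.19 without WT replicate 1. Like *Apoa4*, it had 1 low and 1 high mouse in each genotype. *Lipa*, the lysosomal acid lipase, read 5696 and 5456 in G9aΔHep livers, against 6098 and 4965 in WT livers at its brightest probe set and overlapped. Its dimmer probe sets had log2 fold changes of 0.28 and 0.37, without overlap. *Lipc*, hepatic lipase, was not analysed here.

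Of the genes for intracellular cholesterol handling, *Npc2*, which carries cholesterol out of the lysosome, read 5936 and 5099 in G9aΔHep livers, against 5059 and 4929 in WT livers. The values did not overlap, and the log2 fold change was 0.14 (SE 0.12, adjusted p 0.751). Its membrane partner *Npc1* read 1794 and 2191 in G9aΔHep livers, against 1770 and 2293 in WT livers, and overlapped. *Npc1l1*, the transporter that takes up sterols, was not detected, at 47.0 and 68.3 in G9aΔHep livers, against 40.8 and 33.5 in WT livers. *Soat1* and *Soat2*, which esterify cholesterol in the cell, were not analysed here. *Apoh*, or beta-2-glycoprotein I, read 63005 and 60682 in G9aΔHep livers, against 64078 and 62530 in WT livers, and overlapped. Also not detected were *Apobr*, the receptor for apolipoprotein B-48, at 200.7 and 107.6 in G9aΔHep livers, against 92.0 and 145.4 in WT livers, and *Apol6*, at 8.76 and 63.4 in G9aΔHep livers, against 6.77 and 40.0 in WT livers.

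Several apolipoproteins were among the brightest genes on the arrays. Of 104 tested genes above the 99th percentile of mean signal, 10 were lipoprotein genes: *Apoa1*, *Apoa2*, *Apoa5*, *Apob*, *Apoc1*, *Apoc3*, *Apoc4*, *Apoe*, *Apoh* and *Pon1*. Their median absolute log2 fold change was 0.051 and the largest was 0.109. Over the 104 genes the median was 0.088. Changes near the top of the scanner range can be compressed, the files carry no saturation flag, and the effect on these fold changes was not tested. Mice of 1 genotype also differed little: the higher signal was a median 1.102 times the lower over members in G9aΔHep livers and 1.117 times in WT livers, beside 1.162 times in G9aΔHep livers and 1.157 times in WT livers over all genes tested.

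**Figure D4:**
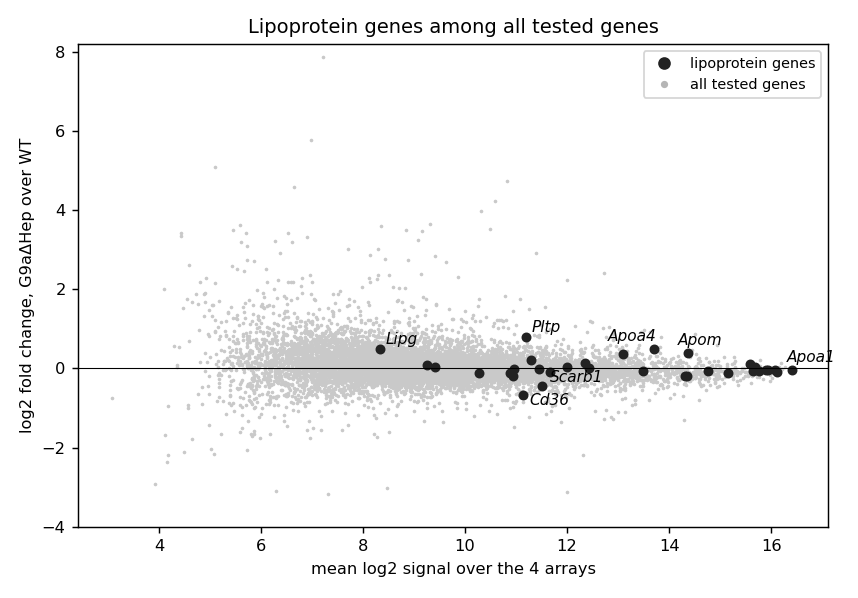
Log2 fold change (G9aΔHep over WT, y axis) against mean log2 signal over the 4 arrays (x axis) for the 33 detected lipoprotein genes (black) among all 10350 tested genes (grey). The apolipoproteins at the right of the plot lie close to 0, and *Pltp* and *Cd36* are the members farthest from it.

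Genes that supply, secrete, lipidate or regulate these particles were read from a further list of 47, of which 41 had a probe set and 37 were tested. None was called by limma after adjustment. At an unadjusted p under 0.05, 1 had a higher signal in G9aΔHep livers and 1 a lower signal, against 5.92% of all genes higher and 4.10% lower. The median log2 fold change was -0.03, beside 0.02 over all genes. *Ces1g*, a liver carboxylesterase that limits triglyceride secretion in mice, read 10244 and 7221 in G9aΔHep livers, against 4460 and 3222 in WT livers. Both G9aΔHep values lay above both WT values, with a log2 fold change of 1.18 (SE 0.22) and an adjusted p of 0.157. The value was past the adjusted threshold without G9aΔHep replicate 2, at a log2 fold change of 1.43 and a limma adjusted p of 0.046, and over the other limma alternatives its adjusted p was 0.141 to 0.414. *P4hb*, the protein disulfide isomerase subunit of the microsomal triglyceride transfer complex, read 25001 and 25223 in G9aΔHep livers, against 30842 and 31178 in WT livers. The genotypes did not overlap, at a log2 fold change of -0.30 (SE 0.09) and an adjusted p of 0.337.

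*Abca1*, which exports cholesterol and phospholipid to apolipoprotein A-I, read 7643 and 6461 in G9aΔHep livers, against 9089 and 8098 in WT livers. These did not overlap, at a log2 fold change of -0.29 (SE 0.13, limma adjusted p 0.540). *Cideb*, a lipid droplet protein that helps load nascent particles, read 5184 and 6565 in G9aΔHep livers, against 7010 and 7233 in WT livers, and did not overlap, at a log2 fold change of -0.29 (SE 0.14, limma adjusted p 0.563). Of 9 tested transcription factors that bear on these genes, 5 had a log2 fold change above 0, against 53.4% of all genes tested.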

How the data were processed

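Liver RNA of each mouse was hybridised to 1 array, and the authors summarised the probes of each probe set with MAS5 (version not given in the sources used here). Deposited intensity values were MAS5 signals scaled so that each array had a trimmed mean of 500, with 2% left out at each end. The deposited detection p-values and calls (Present or Absent) were used as given. The series table held the same signals. Log2 signals were fitted with limma 3.58.1 in R 4.3.3 (lmFit, eBayes with a mean-variance trend, G9aΔHep over WT, all 4 arrays, no covariate). The number of arrays limits the precision, with 2 residual and 4.02 prior degrees of freedom. A probe set entered if it was Present on at least 2 arrays and named 1 gene in the platform annotation (34945 of 45101 did, 932 named several, 9160 none), and the brightest one stood for each gene. P-values were adjusted over all 10350 genes. The methods' t-test was run as an alternative. Members and lists were chosen with earlier results of these data known. Full statistics were given for the 14 members with the smallest p and for 4 pathway genes. The other 19 detected members were given by signals. Group names came from the genotype labels.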

Additional observations from a re-analysis of the deposited data

How the results depend on the processing

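No lipoprotein gene was called in the 10 alternatives that kept all 4 arrays. In the 9 of them that used limma, 3 to 6 members were past an unadjusted p of 0.05. Of all genes, 7.77% to 10.8% were past it there. The 6 came with quantile normalisation, where 9.16% of all genes were past it. The 3 came with no mean-variance trend (9.3% of all genes) and when the probe sets of a gene were averaged (9.74%). The count of all genes called was 40. It was 15 with no detection filter and 26 when Present calls were required on all 4 arrays. With no mean-variance trend limma called 0, with 963 at an unadjusted p under 0.05, and the methods' t-test called 0, with 855 at an unadjusted p under 0.05. Leaving out 1 mouse gave 8 to 71 (8 without either WT mouse, 15 without G9aΔHep replicate 1, 71 without G9aΔHep replicate 2), the lone mouse then being assumed to vary like the other genotype. The pathway count was 0 to 1 when 1 mouse was left out, the 1 being *Ces1g* without G9aΔHep replicate 2. The median log2 fold change of the members was -0.06 to 0.01 when 1 mouse was left out and -0.10 to 0.02 otherwise. The log2 fold change of *Pltp* was 0.65 to 0.94 when 1 mouse was left out (limma adjusted p 0.145 to 0.542), that of *Cd36* -0.89 to -0.44, of *Scarb1* -0.54 to -0.34 and of *Apom* 0.25 to 0.55. Signs turned for *Apoc2* at 0.0482 (range -0.40 to 0.0482) and *Lrp1* at -0.0347 (range -0.0347 to 0.47) without WT replicate 2, and for *Lipg* at -0.186 (range -0.186 to 1.19) without WT replicate 1. The causes were not tested. Quantile normalisation turned the sign of 8 members near 0, and centring on the array median that of 4. No paired analysis was possible because the labels give the genotypes no shared replicate numbers. Dim probe sets limit what can be read: 95% of Absent signals were at or below 170.5 to 181.1.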
